A study of Mus musculus with 6 samples.

Results

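The miRNAs miR-192-5p (listed as mmu-miR-192-5p) and miR-194-5p (mmu-miR-194-5p) are 2 of the 1224 miRNA names in the deposited table of all miRNAs, and were taken from it by these exact names. The small RNA libraries came from GC-1spg, an immortalised line derived from mouse testis that serves as a model of spermatogonia, grown with 10% serum in the medium. One group was transfected with siRNA to METTL3 (si-METTL3, 3 libraries) and the other with control siRNA (si-NC, 3 libraries), and cells were taken 48 h later. METTL3 is the catalytic subunit of the methyltransferase that places N6-methyladenosine (m6A) on RNA. The labels print one and the same sequence for both siRNAs and the counts hold no mRNA, so the knockdown could not be checked and the groups are those of the sample titles. All libraries come from 1 cell line. Nothing in the labels tells whether a group's 3 libraries were separate cultures, so the p-values cover only how far these libraries spread, and that spread may be technical.

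miR-192 and miR-194 are made from neighbouring hairpins of one primary transcript. They are best known from the epithelium of liver, gut and kidney, and p53 induces them in human cells. miR-192-5p shares its seed, the bases 2 to 8 that pair with target mRNAs, with miR-215-5p, and both slow the cell cycle in human cells. METTL3 has been reported to mark primary miRNA transcripts for processing in human cells, at sites that hold the letters GGAC.

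The sequences below show which reads carry these names, since several names of the table differ from a member only at an end. They are the deposited sequences, in DNA letters, with bases 2 to 8 of each in capitals.
miR-192-5p: cTGACCTAtgaattgacagcc
miR-192-z: cTGACCTAtgaattgacagccagt
miR-215-5p: aTGACCTAtgatttgacagac
miR-192-x: tGACCTATgaattgacagccagt
miR-215-x: tGACCTATgaattgacagccaa
miR-215-z: tGACCTATgaattgacagccat
miR-194-5p: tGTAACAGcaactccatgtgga
miR-194-x: tGTAACAGcaactccatgtggaaa

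The endings -x, -y and -z stand on names without the mouse prefix mmu-, called names of other species here. No source used here explains the endings. miR-192-x and miR-192-z match the mouse Mir192 hairpin over their whole length. miR-192-z begins where miR-192-5p begins. miR-192-x begins 1 base further in, so that its bases 2 to 8 are GACCTAT in place of TGACCTA. miR-215-x and miR-215-z are named after miR-215, but their first 21 bases match Mir192 and only the last base does not. A name predicted by the authors, with the start of miR-192-x, matches Mir192 over its 24 bases and was included after its sequence was seen. miR-194-x matches Mir194-2 in 23 of its 24 bases.

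In RefSeq on GRCm38.p6, the assembly behind the mm10 build that the submitters' processing notes name, miR-192-5p lies at chr19:6264857-6264877 on the plus strand. miR-194-5p has a pair of loci with the same mature sequence, chr19:6264658-6264679 in Mir194-2 and chr1:185313325-185313346 in Mir194-1, both on the plus strand, and a read of it cannot be assigned to either. On chromosome 19 Mir194-2 ends 115 bases before Mir192 starts, and both lie outside other genes of GENCODE M21. The nearest protein-coding gene, Atg2a, an autophagy gene on the same strand, ends 2308 bases upstream of the start of Mir194-2. On chromosome 1, 195 bases separate Mir194-1 from Mir215. Both of these lie antisense to an intron of Iars2, the mitochondrial isoleucyl-tRNA synthetase, and in the noncoding gene 2010103J01Rik on their own strand, Mir194-1 in its intron and Mir215 in an exon. The hairpins are shown in RNA letters with the annotated mature arms in capitals. They show where the arms lie at each locus, and they are the sequences searched for the GGAC letters.
Mir194-2: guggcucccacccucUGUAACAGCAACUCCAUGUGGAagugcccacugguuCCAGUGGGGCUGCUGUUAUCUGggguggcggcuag
Mir192: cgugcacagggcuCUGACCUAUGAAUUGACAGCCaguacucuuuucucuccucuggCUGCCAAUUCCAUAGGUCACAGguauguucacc
Mir194-1: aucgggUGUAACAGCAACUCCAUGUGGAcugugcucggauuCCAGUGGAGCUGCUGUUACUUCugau
Mir215: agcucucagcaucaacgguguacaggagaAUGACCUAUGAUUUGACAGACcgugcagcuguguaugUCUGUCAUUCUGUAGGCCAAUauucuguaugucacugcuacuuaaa

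GGAC was searched on both strands of each hairpin, and it does not overlap another motif searched. It occurs once on the transcribed strand of Mir194-1, from base 26, across the end of the miR-194-5p arm, and in neither strand of Mir192, Mir194-2 or Mir215. Of 1005 mouse hairpins in RefSeq, 24.5% hold it on the transcribed strand and 40.5% on either strand. The flanks of the primary transcripts were not searched.

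The library totals behind the deposited values were 4473804 to 6132668 reads in si-METTL3 and 3998058 to 4052812 reads in si-NC. At these totals 3 counts stand for 0.489 to 0.75 CPM. By counts of miR-750-y and bantam-y, names of other species, the libraries fell into 3 sets. si-METTL3 1, si-NC 2 and si-NC 3 held 83 to 321 counts of miR-750-y, si-METTL3 2 and 3 held none of it but 139 and 116 of bantam-y, and si-NC 1 held none of it and 1 of bantam-y. Only the first of these sets holds both groups. Among 8 miRNAs known from undifferentiated spermatogonia 7 were listed, led by miR-21a-5p (141000 CPM on average). Their summed level, most of it miR-21a-5p, was 145130 to 161469 CPM in si-METTL3 and 148458 to 154771 CPM in si-NC. miR-106a-5p and 10 miRNAs of the miR-290 and miR-302 clusters, which mark pluripotent cells, were not analysed here.

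Both members were steadily detected and moderately abundant. Over all 6 libraries miR-192-5p averaged 1570 CPM (the table's reads scaled to library size and between libraries by TMM), rank 48 of the 679 mouse names. It stood next below miR-20a-5p, a proliferation-linked miRNA of the miR-17-92 cluster (1580 CPM), and next above miR-378a-3p, a miRNA from an intron of Ppargc1b. The range of miR-20a-5p overlapped that of miR-192-5p in both groups (1470 to 1700 CPM in si-METTL3 and 1490 to 1650 CPM in si-NC). That of miR-378a-3p overlapped it in si-METTL3 (1470 to 1550 CPM) and lay below it in si-NC (1290 to 1390 CPM). miR-194-5p averaged 267 CPM, rank 99, between miR-378c and miR-130a-3p, whose si-NC values, 265 to 293 CPM and 281 to 286 CPM, overlapped its own range of 264 to 284 CPM. In every library miR-192-5p had more reads than miR-194-5p.

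miR-192-5p was slightly lower after METTL3 siRNA, at the edge of what the replicate spread allows. It had 9279, 6422 and 6612 counts in si-METTL3 1 to 3, and 6849, 6204 and 7135 counts in si-NC 1 to 3. The deposited TPM, which here are counts scaled to the library total and not to length, were 1513, 1435 and 1448 in si-METTL3 1 to 3, and 1690, 1552 and 1782 in si-NC 1 to 3. After TMM scaling the levels were 1522, 1479 and 1497 CPM in si-METTL3, and 1674, 1512 and 1723 CPM in si-NC. The si-METTL3 libraries lay close together. The TPM of the groups did not overlap, while the TMM-scaled levels did, since si-NC 2 stood below si-METTL3 1. After TMM scaling the groups did not overlap for 41.2% of all names tested, with si-METTL3 lower for 17.8%. That share was not counted for TPM, so its lack of overlap cannot be weighed. The means were 1499 ± 21.3 CPM in si-METTL3 and 1636 ± 110 CPM in si-NC (SD, n = 3 each). This is a 0.917-fold level, a log2 fold of -0.13 ± 0.05 (SE, 95% interval -0.22 to -0.03), which passed the threshold of 0.05 narrowly (two-sided quasi-likelihood test of edgeR, adjusted p 0.0469 by Benjamini and Hochberg). Of all 622 names tested, 29.3% passed, 11.6% as lower and 17.7% as higher. The log2 fold was negative in all 20 alternative analyses, but the call was lost in 8 of them. These included leaving out any one library other than si-NC 2 (adjusted p 0.0552 to 0.23, edgeR). Without si-NC 2, the lowest of its group, the log2 fold was -0.19 (adjusted p 0.00387). With a term for the 3 sets of libraries, the log2 fold was -0.09 ± 0.06 and the call was lost. Only the first set then compares the groups, and si-METTL3 1 is its only si-METTL3 library. In bulk libraries like these, fewer cells that make a miRNA and less of it per cell cannot be told apart.

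**Figure D1:**
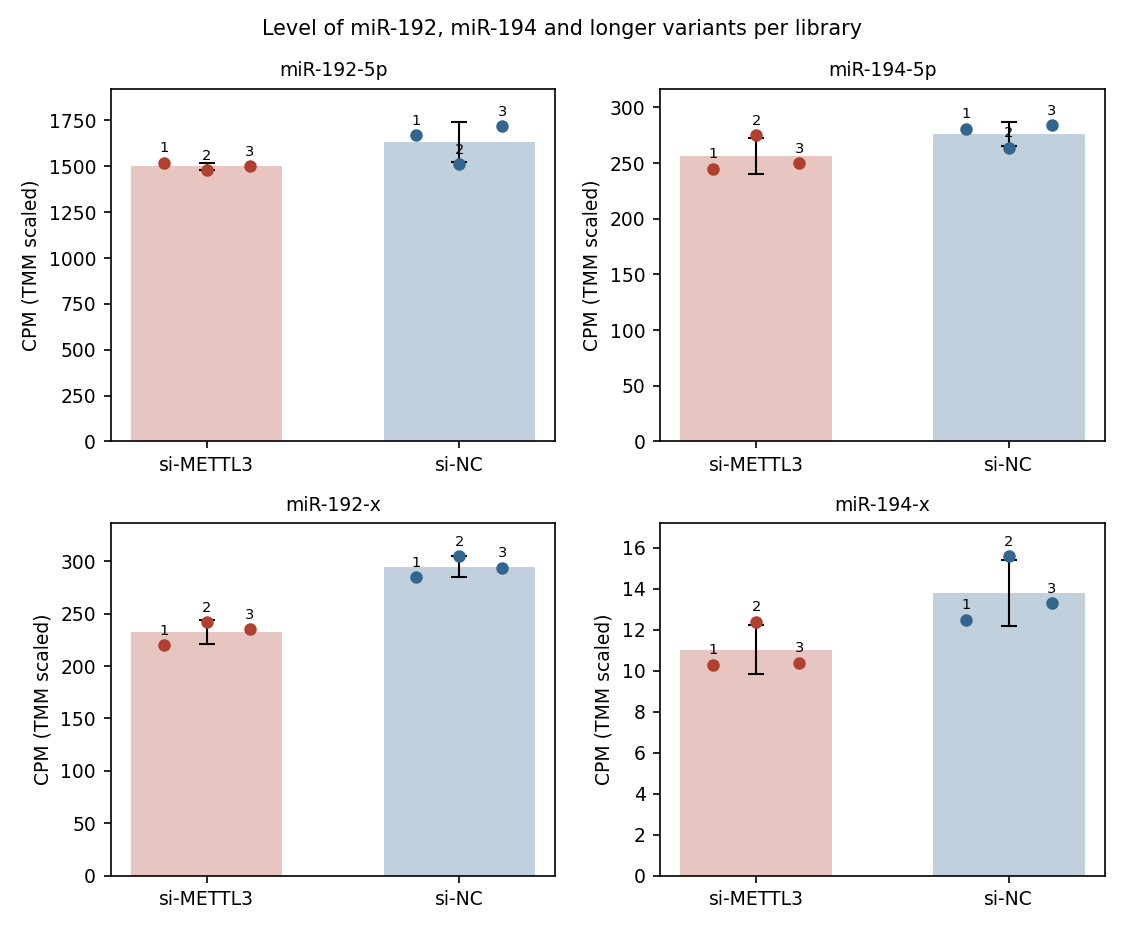
Level in CPM with TMM scaling of miR-192-5p, miR-194-5p and their longer variants miR-192-x and miR-194-x, for 3 si-METTL3 and 3 si-NC libraries. Bars are means, error bars SD, and points libraries with their replicate numbers; the groups overlap for miR-192-5p and miR-194-5p, while all si-METTL3 libraries lie below all si-NC libraries for miR-192-x and miR-194-x.

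miR-194-5p, which represses N-cadherin in liver cells, did not pass. It had 1493, 1193 and 1105 counts in si-METTL3 1 to 3, and 1150, 1082 and 1178 counts in si-NC 1 to 3. The deposited TPM were 243, 267 and 242 in si-METTL3, and 284, 271 and 294 in si-NC. After TMM scaling the levels were 245, 275 and 250 CPM in si-METTL3, and 281, 264 and 284 CPM in si-NC. The TPM of the groups again did not overlap, for which no share over all names was counted. The TMM-scaled levels did overlap, since si-METTL3 2 stood above si-NC 2. The log2 fold was -0.11 ± 0.06 (SE, 95% interval -0.23 to 0.02, adjusted p 0.204, edgeR). With library totals alone in place of TMM, a scaling that moves the median log2 fold of all names by -0.066, it was -0.18 and passed (adjusted p 0.0303).

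The ratio of the members to each other differed by less than the spread between libraries. For each 100 reads of miR-192-5p there were 16.1, 18.6 and 16.7 reads of miR-194-5p in si-METTL3 1 to 3, and 16.8, 17.4 and 16.5 in si-NC 1 to 3. The means were 17.1 ± 1.29 in si-METTL3 and 16.9 ± 0.477 in si-NC (SD, n = 3 each, exact two-sided permutation p 0.9, adjusted p 0.9 over 5 ratios). The highest and the lowest value both belong to si-METTL3. The smallest p that 3 against 3 libraries can give is 0.1. Over the 6 libraries the log2 levels of the members had a Pearson correlation of 0.68, which includes the difference between groups and scaling they share.

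The 3p arms had few reads beside the members. miR-192-3p, the other arm of Mir192, had 31 reads over the 6 libraries beside 42501 of miR-192-5p, or 1 read for each 1370. It had 6, 3 and 6 counts in si-METTL3 1 to 3, and 8, 5 and 3 in si-NC 1 to 3. miR-194-2-3p, the other arm of Mir194-2, had 49 reads beside 7201 of miR-194-5p, which may come from either of its loci, with 12, 7 and 4 counts in si-METTL3, and 5, 6 and 15 in si-NC. Their summed counts over library totals, si-METTL3 over si-NC, were 0.745 (95% exact binomial interval 0.343 to 1.61) for miR-192-3p and 0.703 (0.383 to 1.28) for miR-194-2-3p, so that no difference was detectable at this depth. These intervals cover counting error only.

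The partner found at chromosome 1 alone was nearly absent. miR-215-5p, which shares the miR-192 seed, had 2, 1 and 0 counts in si-METTL3 1 to 3, and 2, 1 and 2 in si-NC 1 to 3. That is 8 reads in all, at or under the level of 3 counts in each library. miR-194-1-3p and miR-215-3p were not analysed here. None of these other arms and cluster partners passed the filter on low counts, so none was tested.

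The clearest difference on these arms was that of the shifted and longer form. miR-192-x had 1342, 1052 and 1038 counts in si-METTL3 1 to 3, and 1166, 1250 and 1217 in si-NC 1 to 3. Its levels were 220, 242 and 235 CPM in si-METTL3, and 285, 305 and 294 CPM in si-NC. Every si-METTL3 library lay below every si-NC library. Groups did not overlap for 41.2% of all names tested, and si-METTL3 was the lower one for 17.8%. Its means were 232 ± 11.3 CPM in si-METTL3 and 294 ± 9.83 CPM in si-NC (SD, n = 3 each), a 0.788-fold level. The log2 fold was -0.34 ± 0.06 (SE, 95% interval -0.46 to -0.22, adjusted p 6.6e-05, edgeR). The call held in all 17 alternative analyses that tested this name, with log2 folds between -0.44 and -0.30. With the term for sets of libraries, chosen after seeing the data, its log2 fold was -0.44 ± 0.10. That fit compares si-METTL3 1 alone with si-NC 2 and 3.

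miR-192-z, with the start of miR-192-5p and its end extended, had 25.8, 29 and 23.5 CPM in si-METTL3 1 to 3, and 29.3, 36.5 and 32.8 CPM in si-NC 1 to 3. These groups did not overlap either, by a small margin, and the log2 fold of -0.33 ± 0.13 did not pass (adjusted p 0.0602, edgeR). It passed in 8 of 17 alternatives, among them library totals alone (adjusted p 0.0248). miR-194-x had 10.3, 12.4 and 10.4 CPM in si-METTL3, and 12.5, 15.6 and 13.3 CPM in si-NC, a log2 fold of -0.32 ± 0.18 (adjusted p 0.218). miR-215-x, miR-215-z and the predicted name had 56 to 202 reads each in all, overlapping groups, and adjusted p between 0.4 and 0.98. Of the 6 variants tested, 1 passed as lower and none as higher, beside 11.6% lower and 17.7% higher of all names tested. The median log2 fold of all 6 was -0.33, beside 0.0054 over all names, and 5 of them were negative. Most of these variants share reads of one hairpin, so they are not independent of each other.

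**Figure D2:**
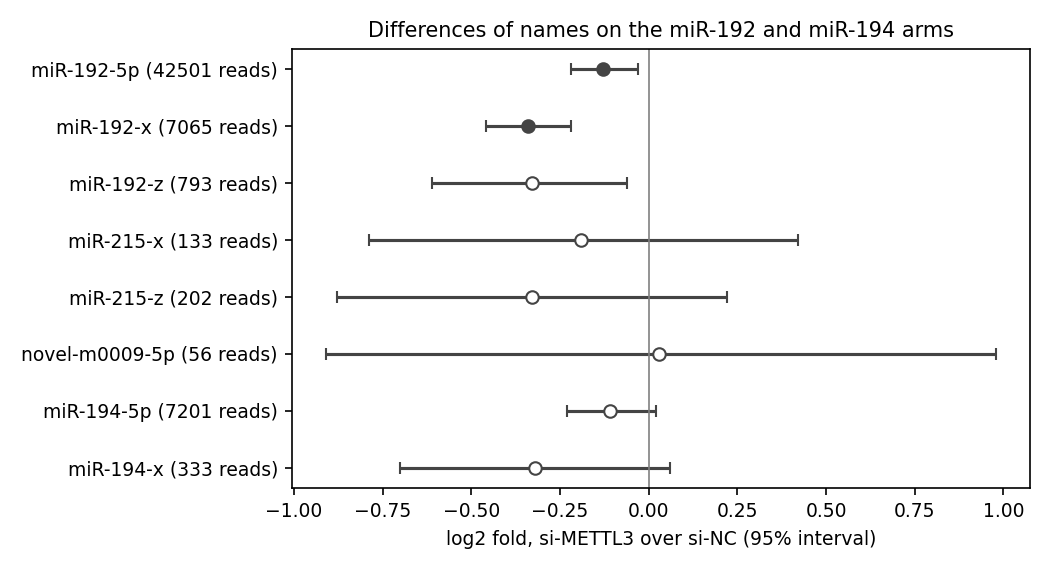
Log2 fold of si-METTL3 over si-NC for the members and the 6 variants of their arms, with 95% intervals from edgeR's fit; filled points passed an adjusted p of 0.05 and each name has its reads over 6 libraries beside it. miR-192-5p and miR-192-x are the filled points, and the intervals widen as reads become few.

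Whether miR-192-x differed more than miR-192-5p was tested by their ratio within each library. For each 100 reads of miR-192-5p there were 14.5, 16.4 and 15.7 reads of miR-192-x in si-METTL3 1 to 3, and 17, 20.1 and 17.1 in si-NC 1 to 3. The groups did not overlap, and si-NC 2 was the highest library. The means were 15.5 ± 0.972 in si-METTL3 and 18.1 ± 1.79 in si-NC (SD, n = 3 each, exact two-sided permutation p 0.1, the smallest possible, adjusted p 0.25 over 5 ratios). In a limma fit over 93 pairs of a variant and its mouse name, the log2 ratio differed by -0.22 ± 0.10 (SE, 95% interval -0.45 to 0.01, adjusted p 0.144). Of the 93 pairs 10.8% passed, and 3.23% of all pairs did so as lower in si-METTL3. The fall of miR-192-x was thus not shown to be larger than that of miR-192-5p. miR-192-z had 1.69, 1.96 and 1.57 reads per 100 of miR-192-5p in si-METTL3, and 1.75, 2.42 and 1.91 in si-NC. miR-194-x had 4.22, 4.53 and 4.16 per 100 of miR-194-5p in si-METTL3, and 4.43, 5.91 and 4.67 in si-NC. In both of these ratios the groups overlapped, with log2 differences of -0.21 and adjusted p of 0.327 and 0.264 in the same limma fit.

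**Figure D3:**
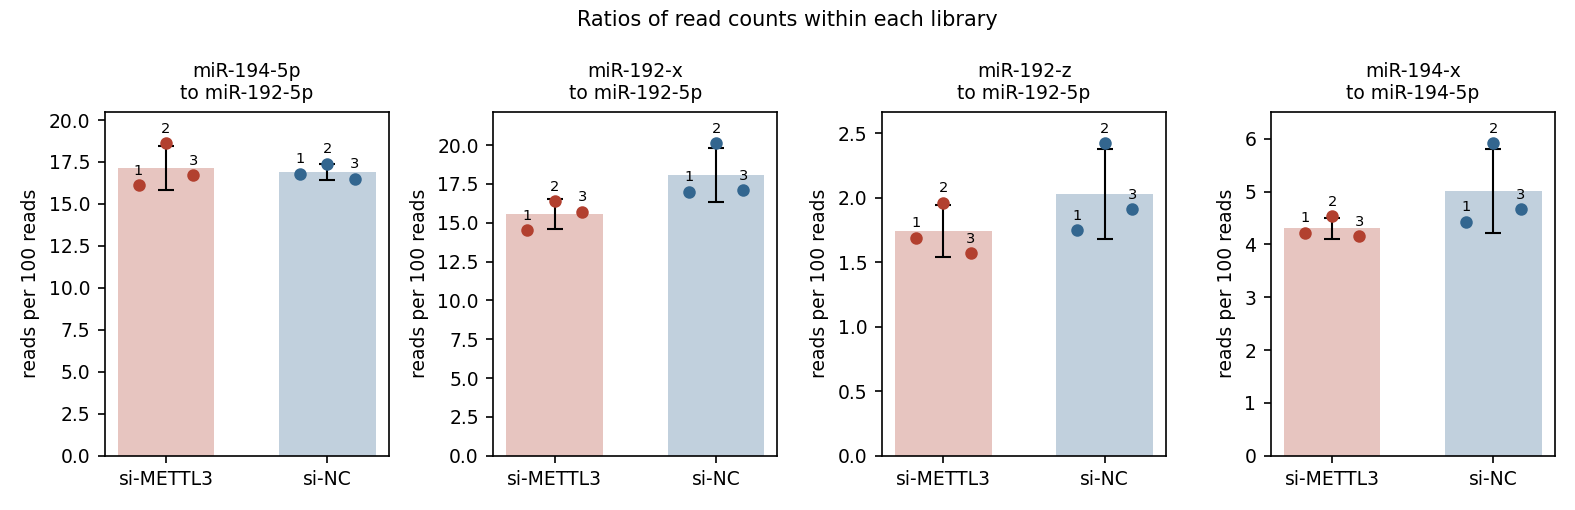
Reads of one name for each 100 reads of another within a library, for miR-194-5p and 3 variants, in 3 si-METTL3 and 3 si-NC libraries. Bars are means, error bars SD and points libraries with their replicate numbers; only miR-192-x to miR-192-5p has groups that do not overlap, at 14.5 to 16.4 in si-METTL3 and 17 to 20.1 in si-NC.

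Names that hold the 20 bases shared by miR-192-5p and miR-192-x were also split by their start. The 4 names that start 1 base in, with the shifted seed, summed to 233, 252 and 252 CPM in si-METTL3 1 to 3, and to 300, 320 and 310 CPM in si-NC 1 to 3. The pair that starts at the mouse base summed to 1548, 1508 and 1521 CPM in si-METTL3, and to 1703, 1548 and 1756 CPM in si-NC. Names starting 1 base in thus made up 13.1%, 14.3% and 14.2% of this arm in si-METTL3, and 15%, 17.1% and 15% in si-NC, with no overlap (exact two-sided permutation p 0.1, adjusted p 0.25). Such a start is uncommon among the variants of this table, with 5 of 93 pairs shifted inward by 1 base and 13 shifted at all. All 6 names of the arm were also summed before the fit, a sum chosen after seeing the data. The arm was then lower in si-METTL3, with a log2 fold of -0.16 ± 0.04 (adjusted p 0.00519, edgeR). The sum holds miR-192-5p and miR-192-x themselves, so it is no separate support for their falls. The summed level was 1781, 1761 and 1772 CPM in si-METTL3, and 2004, 1868 and 2065 CPM in si-NC. Every si-METTL3 library was lower, as for 17.8% of all names tested. No source used here tells how the authors assigned reads whose ends differ from a listed name, and the split between names rests on it.

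**Figure D4:**
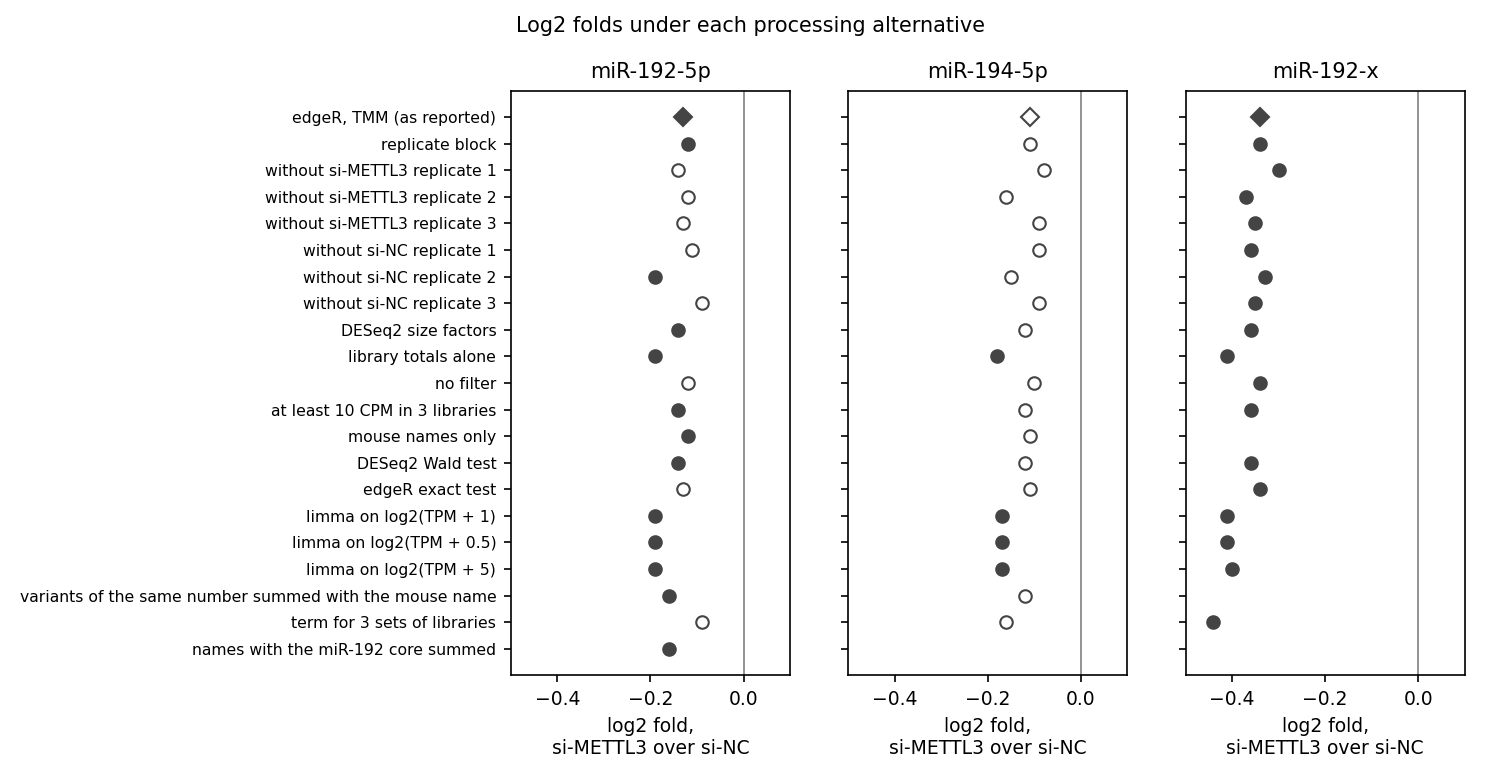
Log2 fold of si-METTL3 over si-NC for miR-192-5p, miR-194-5p and miR-192-x under each processing alternative, with the reported analysis as a diamond at the top; filled symbols passed an adjusted p of 0.05. All folds are negative, miR-192-x is filled wherever it was tested, and miR-192-5p and miR-194-5p are filled under some settings only.

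In the authors' deposited table miR-192-5p has a log2 fold change of -0.19 with an FDR of 0.195, and miR-194-5p one of -0.17 with an FDR of 0.347. The authors' deposited table gives miR-192-x a log2 fold change of -0.41 with an FDR of 1.2e-07. In the authors' deposited table of differently expressed miRNAs, whose 50 names have absolute log2 fold changes of at least 1.01, no miR-192, miR-194 or miR-215 name stands.

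Other miRNAs that p53 induces or helps to process changed in both directions. Of 15 such names besides the members 14 were listed and 12 tested, and 4 rose and 3 fell, beside 17.7% higher and 11.6% lower among all names tested (median log2 fold -0.06, beside 0.0054 for all names). The rises were those of miR-34c-5p, a direct p53 target that slows the cell cycle (log2 fold 0.25 with an adjusted p of 5.1e-04 by edgeR), its other arm miR-34c-3p (0.63), miR-34b-3p (0.46) and miR-15a-5p (0.23). The falls were those of miR-107-3p (-0.28), miR-143-3p (-0.23) and miR-16-1-3p (-0.39). Both arms of a miRNA count as separate names in this list, so its counts are not counts of independent miRNAs. For miR-16-5p, the most abundant of the list, the log2 fold was -0.09 and did not pass (adjusted p 0.124). Adjusted p of the remaining tested names lay between 0.257 and 0.965.

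The other miRNAs of liver, gut and kidney epithelium were mostly scarce. Of 13 names besides the members 10 were listed and 6 tested, and 1 rose and 4 fell, beside 17.7% higher and 11.6% lower of all names tested. Their median log2 fold was -0.55, against 0.0054 over all names. The rise was that of miR-148a-3p, abundant in liver and at 3630 CPM here (log2 fold 0.26, adjusted p 1.8e-04, edgeR). The falls were those of miR-375-3p, a miRNA of endocrine cells (-0.92), and of miR-200a-3p (-0.71), miR-200b-3p (-0.58) and miR-141-3p (-0.52), which keep epithelial cells from becoming mesenchymal. These 4 averaged 6.29 to 42.7 CPM, against 1570 CPM for miR-192-5p. miR-122-5p, which defines hepatocytes, averaged 2.39 CPM and was not tested. The summed level of the list, most of it miR-148a-3p, was 3700 to 4247 CPM in si-METTL3 and 3286 to 3516 CPM in si-NC.

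miRNAs known from blood and serum were followed because the medium held serum. Their summed level was 262 to 274 CPM in si-METTL3 and 203 to 233 CPM in si-NC. Of 10 names, all listed, 7 were tested, 2 rose and none fell, with a median of 0.0030 (all names: 17.7% higher, 11.6% lower, median 0.0054). Both rises were those of miR-486a-5p and miR-486b-5p (log2 fold 0.46 each), whose counts were nearly equal in every library (573 and 572 in si-METTL3 1). Each averaged 98 CPM in si-METTL3 and 71 CPM in si-NC, and the summed level may hold the same reads under both names. miR-451a, made in red blood cells, averaged 11.2 CPM and did not pass (log2 fold -0.20 with an adjusted p of 0.545 by edgeR). The myeloid miR-223-3p averaged 0.671 CPM, and no name of the list was at 0 over all libraries. The part of serum in the members' levels was not tested. Of 7 mesenchymal and testis somatic cell miRNAs 6 were tested, miR-199a-5p rose (log2 fold 0.87) and miR-143-3p fell, with a median of 0.04, against the same shares and median over all names. Their summed level was 7308 to 7509 CPM in si-METTL3 and 5694 to 5783 CPM in si-NC. The part of such cells in the members' levels was not tested.

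Of 8 miRNAs linked to METTL3 in other cells 7 were tested, and 3 fell and none rose (median -0.17), beside 11.6% lower, 17.7% higher and a median of 0.0054 over all names. These were miR-221-3p (-0.24), miR-222-3p (-0.28) and miR-143-3p (-0.23), the last at -0.15 with the term for sets of libraries. Those that did not pass were miR-25-3p (-0.07, adjusted p 0.201, edgeR), miR-126a-3p (-0.17, 0.273), miR-93-5p (0.08, 0.248) and let-7e-5p (0.01, 0.949). Among the 7 tested spermatogonial names 2 rose, miR-182-5p (0.18) and miR-146a-5p (0.31), and 2 fell, miR-221-3p and miR-222-3p, with a median of 0.02, beside the same values for all names.

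The mouse names most like miR-192-5p over the 6 libraries, among 286 with at least 10 CPM, were miR-200a-3p, miR-877-3p, miR-328-3p, miR-24-3p and miR-143-3p, with Pearson correlations of log2 levels from 0.84 to 0.89. Of these all but miR-328-3p fell, beside 11.6% lower of all names tested, and the 5 log2 folds ran from -0.71 to -0.17. Picking names by likeness over the same libraries favours those that fall with miR-192-5p, so this count is no support for its fall. The call of miR-877-3p was lost in 8 of 19 alternatives, and that of miR-143-3p with the term for sets of libraries. The names most like miR-194-5p were miR-212-5p, miR-345-5p, let-7i-3p, miR-148b-5p and miR-378a-5p, with correlations of 0.89 to 0.92. None of these passed, with log2 folds of -0.13 to -0.05, though miR-345-5p did so in 4 of 19 alternatives, among them library totals alone (-0.19, adjusted p 0.0265, edgeR). Neither member was among the other's likest names, and these correlations are descriptions of 6 libraries that share scaling and grouping.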

How the data were processed

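Small RNA libraries of GC-1spg cells were compared, 3 after METTL3 siRNA and 3 after control siRNA, grouped by sample title. The build mm10 and the tools RSEM, StringTie, Bowtie2 and fastp are named, with no role, per the submitters' processing notes. How miRNAs were named, predicted and tested is not stated there. Per the file headers, the deposited tables hold a whole-number count of reads per name and a TPM per library. Each TPM equals its count scaled to one library total (largest gap 5e-05), with 0 written as 0.01. The deposited log2 fold change compares the authors' mean TPM, si-METTL3 over si-NC, and comes with a p-value and an FDR of the authors. The table of all miRNAs has 2 empty lines. Of its names 679 are mouse names, 478 those of other species and 67 predicted, and it holds 91.4% to 92.1% of the library totals.

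All names were tested in one fit with edgeR 4.0.16 (R 4.3.3, quasi-likelihood test, two-sided, robust, filterByExpr, TMM, no block, 4 residual degrees of freedom, common coefficient of biological variation 0.0583), with the totals behind the TPM as library sizes and Benjamini-Hochberg adjustment over all 622 names tested. The script was tested on simulated data. Ratios within a library were compared with exact permutation tests over 5 ratios and with limma 3.58.1 on log2 ratios (0.5 counts added) of 93 pairs of a variant and the mouse name that shares at least 17 bases in a row, both with a mean of at least 50 counts; the test of variant ratios was chosen after seeing the data. Sequences and hairpins are RefSeq's on GRCm38.p6. The deposited sequences of miR-192-5p, miR-194-5p, miR-215-5p, miR-192-3p and miR-194-2-3p equal RefSeq's.

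Named are the members, their other arms and cluster partners, names of other species numbered 192, 194 or 215, names sharing a member's seed, the 5 mouse names of highest correlation with each (log2 of CPM + 0.5, mean of at least 10 CPM), their neighbours in abundance and up to 4 names per list; list members that passed and one predicted name were named after their values or sequence were seen. The members and lists were chosen with earlier results of these data known. Replicate numbers did not pair the libraries. The alternatives are given with the results.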

Additional observations from a re-analysis of the deposited data

How the results depend on the processing

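The count of all names called (182) stayed within 1.5 times under all 19 alternatives that gave one. The call of miR-192-5p (log2 fold -0.13) was lost with no filter (-0.12), with edgeR's exact test (-0.13) and, chosen after seeing the data, with a term for 3 sets of libraries (-0.09). Leaving out 1 library moved it between -0.19 and -0.09. miR-194-5p (-0.11) passed with library totals alone (-0.18) and with limma on log2 TPM after adding 0.5, 1 or 5 (-0.17 each), and ran from -0.16 to -0.08 without 1 library. The replicate numbers did not pair the libraries (correlations of deviations -0.36, -0.08 and -0.28). With them as a block, miR-192-5p had -0.12 (adjusted p 0.0324, edgeR), miR-194-5p -0.11 (0.225) and miR-192-x -0.34 (4.6e-05). No call changed among the members, their variants, the likest names and the neighbours in abundance, where the block was run. As pairs, the log2 ratio of miR-194-5p to miR-192-5p differed by 0.02 (exact permutation p 0.75, a test that cannot reach 0.05 with 3 pairs). Unpaired, this difference turned sign without si-METTL3 2 (-0.04) and without si-NC 3 (-0.0015), and was at most 0.06 without any 1 library. The log2 ratio of miR-192-x to miR-192-5p kept its direction and did not pass in 10 alternatives, all chosen after seeing the data, from -0.26 to -0.14 without 1 library and -0.36 with the set term. Of the 6 tested variants and the 5 likest names of each member, 5 passed, beside 29.3% of all names tested. The likest names were picked over these same libraries, so this count is no support. Of those tested in each alternative other than the set term, 4 to 7 passed. Fewer passed with the set term, which compares si-METTL3 1 alone with si-NC 2 and 3. Small log2 folds that turned sign were those of miR-215-x (0.02 without si-METTL3 1, down to -0.33 without si-NC 1 and -0.75 with the set term), of the predicted name (-0.11 without si-METTL3 3, -0.15 without si-NC 1, up to 0.34 without si-METTL3 2, -0.03 with library totals, -0.0036 with DESeq2's Wald test, -0.09, -0.12 and -0.03 with limma) and of miR-20a-5p (-0.04 without si-METTL3 3, up to 0.07 without si-METTL3 1, -0.03 without si-NC 3, -0.05 with library totals and with limma, -0.00071 with at least 10 CPM, -0.09 with the set term). The cause was not tested. Names under the filter, among them miR-215-5p and both 3p arms, gave no test at this depth.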
